A study of Mus musculus with 8 samples.

Results

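The enzymes that make pyrimidine nucleotides were followed through RNA sequencing of 32D cells, an interleukin-3 (IL-3) dependent mouse myeloid line. Their genes were chosen by name, from the enzymes known to build uridine and cytidine nucleotides, and comprised Cad, Dhodh, Umps, Ctps, Ctps2, Uck1, Uck2 and Cmpk1. All 8 were among the 56748 genes listed, and all 8 were among the 11818 genes that passed the filter on low values. The 8 libraries came from 4 groups of 2 clones, numbered 1 and 3. The groups were Jak2WT GLUT1/3 WT, Jak2WT GLUT1/3 dKO, Jak2V617F GLUT1/3 WT and Jak2V617F GLUT1/3 dKO. Every group carried murine Jak2WT or Jak2V617F, introduced by transduction on top of the cells' own Jak2. In dKO clones the glucose transporter genes Slc2a1 (GLUT1) and Slc2a3 (GLUT3) had both been edited with CRISPR-Cas9. Each clone grew from 1 cell, so differences between groups may also be differences between clones, and p-values measure the spread between these clones alone. All cells had been kept for 24 h in RPMI with 5 mM glucose, 1 mM glutamine, 10% fetal calf serum and 2 ng/ml IL-3. The comparisons asked what loss of glucose transport changed in each Jak2 background, and whether both backgrounds responded alike.

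Cells obtain pyrimidine nucleotides by a de novo route and by salvage. The de novo route starts from glutamine, bicarbonate and aspartate and ends at uridine monophosphate (UMP), with the ribose phosphate taken from PRPP, a product of the pentose phosphate pathway that is itself fed by glucose. The salvage route phosphorylates uridine and cytidine taken up from outside or released from RNA. UMP is then phosphorylated to UTP, part of which is aminated to CTP, and both serve RNA synthesis. For DNA synthesis the nucleotides are reduced as diphosphates, so demand is high in dividing blood cells.

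Levels are given as FPKM, the fragments on a gene per kilobase of its length and scaled for the depth of the library, which allows levels of different genes to be compared. Reads on genes ranged from 16846011 to 48884329 per library, and the members were covered by 452 to 17365 reads, Dhodh being the least covered. Slc2a1 lay between 44.7 and 64 FPKM in the GLUT1/3 WT clones and between 9.17 and 17.3 in the dKO clones. Slc2a3 lay between 91.9 and 198 FPKM in the GLUT1/3 WT clones and between 16 and 49.5 in the dKO clones, the higher end being Jak2WT GLUT1/3 dKO clone 3. Jak2 lay between 218 and 258 FPKM in Jak2WT clones and between 139 and 165 in Jak2V617F clones, and reads of the introduced and the cells' own Jak2 cannot be told apart. Of 10 myeloid progenitor markers 5 passed the filter (Prtn3, Spi1, Csf2rb, Il3ra and Ptprc), while Mpo, Elane, Ctsg, Ms4a3 and Cebpa did not. The summed level of the list was 219 to 248 FPKM in Jak2WT GLUT1/3 WT, 160 to 197 in Jak2WT GLUT1/3 dKO, 196 to 201 in Jak2V617F GLUT1/3 WT and 89.2 to 92 in Jak2V617F GLUT1/3 dKO. Of 10 erythroid markers 7 passed, with summed levels of 94 to 112, 246 to 291, 553 to 910 and 2582 to 4679 FPKM in the same order of groups. Of 6 mast cell and basophil markers 2 passed, Cpa3 and Gata2, with Kit listed at 0 in every library and summed levels of 202 to 218, 167 to 222, 156 to 164 and 121 to 162 FPKM. These sums hide a difference between both genes. Cpa3 lay between 50.8 and 100 FPKM in the Jak2WT clones and at or below 1.67 in the Jak2V617F clones. Gata2 lay between 116 and 124 FPKM in the Jak2WT clones and between 119 and 163 in the Jak2V617F clones. None of the 6 lymphoid markers passed, their sum staying at or below 0.805 FPKM, and of 6 non-haematopoietic markers Pecam1 alone did. The part of these cell states in the results on the pyrimidine enzymes was not tested.

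**Figure D1:**
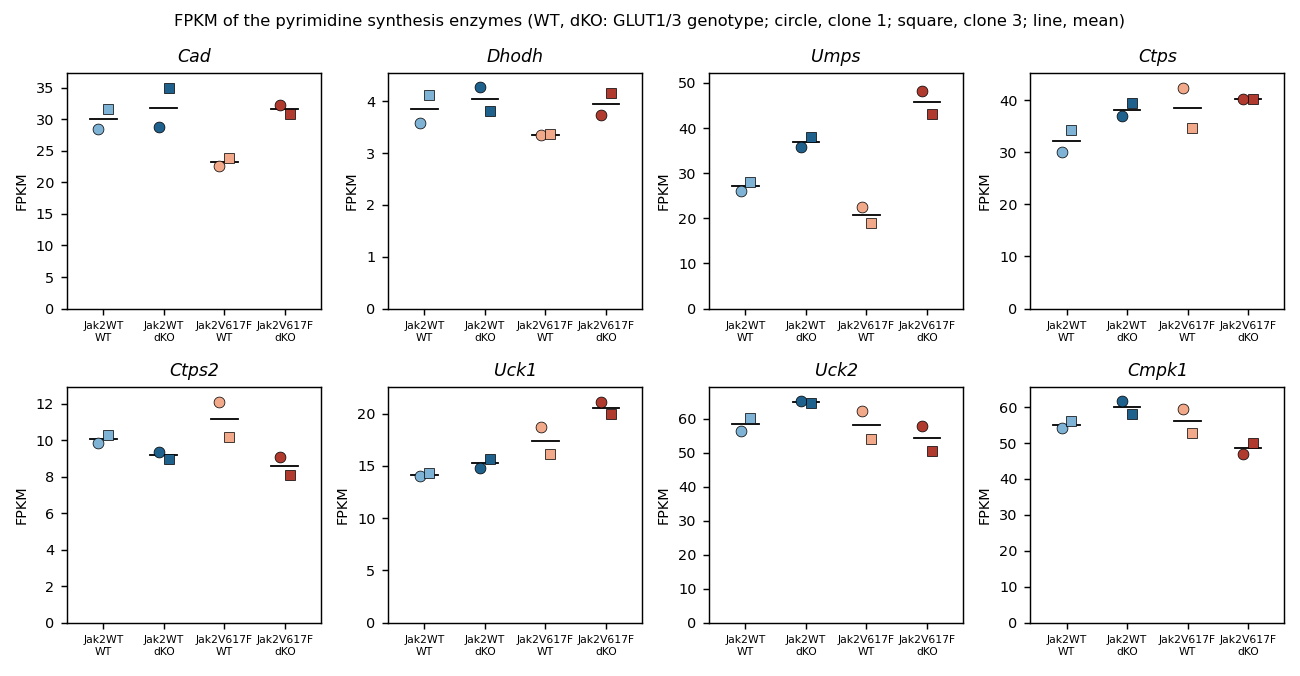
FPKM of the 8 pyrimidine synthesis genes in each library, by group; circles are clone 1, squares clone 3 and lines the group mean, and every vertical axis starts at 0. Umps spans 18.9 to 48.2 FPKM with all 4 groups apart, and Cad and Dhodh have their lowest values in the 2 Jak2V617F GLUT1/3 WT clones.

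The de novo route is carried by Cad, Dhodh and Umps. Cad encodes the large enzyme that joins carbamoyl phosphate synthetase, aspartate transcarbamylase and dihydroorotase in 1 polypeptide, and it carries the committed, regulated steps. It lies at chr5:31212124-31235823 in GRCm39, on the forward strand. Cad stood at 28.4 and 31.7 FPKM in Jak2WT GLUT1/3 WT, against 28.7 and 34.9 in Jak2WT GLUT1/3 dKO, 22.6 and 23.8 in Jak2V617F GLUT1/3 WT, and 32.2 and 30.9 in Jak2V617F GLUT1/3 dKO, the value of clone 1 being given before that of clone 3 here and in what follows. The 2 Jak2V617F GLUT1/3 WT clones lay below all 6 others, whose groups overlapped each other. On the scale of log2(FPKM + 1), Cad rose by 0.43 in Jak2V617F GLUT1/3 dKO over Jak2V617F GLUT1/3 WT (SE 0.108, limma adjusted p = 0.0242 over all genes tested). It was lower by a log2 difference of -0.36 in Jak2V617F GLUT1/3 WT than in Jak2WT GLUT1/3 WT (SE 0.108, limma adjusted p = 0.0435). In the Jak2WT background the dKO difference was 0.07, with a 95% interval from -0.18 to 0.33. The difference between both dKO effects on Cad, 0.35 on the log2 scale, did not pass the test (limma adjusted p = 0.173, interval -0.01 to 0.71), except with voom on recovered reads (0.0495). Without the filter on low values neither call for Cad passed, with adjusted p of 0.0606 for the rise and 0.0956 for the lower level, and the latter did not pass without the intensity trend either (0.0575). The rise in Jak2V617F did not pass without any one of the 4 Jak2V617F libraries, with adjusted p of 0.101 and 0.0603 without GLUT1/3 WT clones 1 and 3 and of 0.0849 and 0.0566 without dKO clones 1 and 3. The lower level in Jak2V617F GLUT1/3 WT did not pass with adjusted p of 0.0834 and 0.222 without Jak2WT GLUT1/3 WT clones 1 and 3, 0.154 and 0.089 without Jak2V617F GLUT1/3 WT clones 1 and 3, and 0.0521 and 0.0522 without Jak2V617F GLUT1/3 dKO clones 1 and 3.

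Dhodh encodes dihydroorotate dehydrogenase, the mitochondrial enzyme of the route, which passes electrons to ubiquinone. It lies at chr8:110317975-110335305 (reverse strand) and had the lowest level of the 8 genes, with a mean of 3.8 FPKM. Dhodh stood at 3.58 and 4.12 FPKM in Jak2WT GLUT1/3 WT, against 4.28 and 3.81 in Jak2WT GLUT1/3 dKO, 3.35 and 3.37 in Jak2V617F GLUT1/3 WT, and 3.73 and 4.17 in Jak2V617F GLUT1/3 dKO. As with Cad, the 2 Jak2V617F GLUT1/3 WT clones had the lowest values and the other 3 groups overlapped. No comparison of Dhodh passed the test. The dKO difference on the log2 scale was 0.18 in Jak2V617F (limma adjusted p = 0.218, interval -0.06 to 0.42) and 0.06 in Jak2WT (interval -0.18 to 0.30).

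Umps encodes UMP synthase, which adds orotate to PRPP and removes a carboxyl group to yield UMP, the last 2 steps of the route. It lies at chr16:33775152-33787408 (reverse strand). Umps stood at 26.1 and 28.1 FPKM in Jak2WT GLUT1/3 WT and at 35.8 and 38 in Jak2WT GLUT1/3 dKO. It stood at 22.5 and 18.9 FPKM in Jak2V617F GLUT1/3 WT and at 48.2 and 43.2 in Jak2V617F GLUT1/3 dKO. All 4 groups were apart from each other, in the order Jak2V617F GLUT1/3 WT, Jak2WT GLUT1/3 WT, Jak2WT GLUT1/3 dKO and Jak2V617F GLUT1/3 dKO from low to high. The ratio of its highest to its lowest library, 2.56, was the widest of the 8 genes, the others lying between 1.28 and 1.54. In bulk libraries a change of RNA per cell and a change in the share of cells that express a gene cannot be told apart.

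In Jak2V617F clones Umps rose by 1.11 on the log2 scale in dKO over GLUT1/3 WT (SE 0.106, limma adjusted p = 0.000713), from a mean of 20.7 ± 2.56 FPKM to 45.7 ± 3.57 (SD, n = 2 each), a ratio of 2.21. In Jak2WT clones it rose by 0.43 (SE 0.106, limma adjusted p = 0.0391), a ratio of 1.36. The difference between these effects was 0.68 (SE 0.151, 95% interval 0.33 to 1.03, limma adjusted p = 0.0349). Without the filter on low values, neither the rise in Jak2WT (limma adjusted p = 0.093) nor the difference between the effects on Umps (limma adjusted p = 0.0869) passed, and the rise in Jak2WT did not pass without the intensity trend either (0.0531). Both the rise in Jak2WT and the difference between the effects were also lost with the clone number as a block in the fit. Before transporter loss Umps was lower in Jak2V617F than in Jak2WT, with a log2 difference of -0.38 (SE 0.106, limma adjusted p = 0.0336), which did not pass without that filter either (0.0764) or with only the groups compared in the fit (0.0581). Among dKO clones it stood higher in Jak2V617F by 0.30, which did not pass (limma adjusted p = 0.0986) except with libraries scaled to the same summed FPKM (0.0376) and with voom on recovered reads (0.0173). These comparisons share libraries: the 2 Jak2V617F GLUT1/3 WT clones enter 3 of the 5 values.

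The dKO effect on Umps in Jak2V617F passed the test without each of the 8 libraries in turn. The other 3 calls depended on single libraries. In Jak2WT the adjusted p for Umps was 0.201 and 0.128 without GLUT1/3 WT clones 1 and 3, and 0.132 and 0.164 without dKO clones 1 and 3. For the lower level in Jak2V617F GLUT1/3 WT it was 0.0899 and 0.172 without Jak2WT GLUT1/3 WT clones 1 and 3, 0.0552 without either Jak2WT GLUT1/3 dKO clone, and 0.138 without Jak2V617F GLUT1/3 WT clone 3. For the difference between the effects, the adjusted p for Umps was 0.0986 and 0.124 without Jak2WT GLUT1/3 WT clones 1 and 3, and 0.128 and 0.0752 without Jak2WT GLUT1/3 dKO clones 1 and 3. It was 0.0668 without Jak2V617F GLUT1/3 WT clone 3 and 0.0688 without Jak2V617F GLUT1/3 dKO clone 1, while the difference itself stayed between 0.56 and 0.73 on the log2 scale in these 6 fits.

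Since Umps catalyses the end and Cad the start of the same route, their levels were set against each other within each library. Umps over Cad, as a ratio of FPKM, was 0.917 and 0.884 in Jak2WT GLUT1/3 WT and 1.25 and 1.09 in Jak2WT GLUT1/3 dKO. It was 0.993 and 0.791 in Jak2V617F GLUT1/3 WT and 1.5 and 1.4 in Jak2V617F GLUT1/3 dKO. All 4 GLUT1/3 WT clones thus had less Umps than Cad and all 4 dKO clones more, as a description without a test.

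The sequences upstream of Cad and Umps are shown because these 2 genes shared their lowest libraries and both rose in Jak2V617F GLUT1/3 dKO. Each run holds the 250 bases before the start of the reference transcript (GENCODE, GRCm39), at chr5:31211861-31212110 on the forward strand for Cad and chr16:33787430-33787679 on the reverse strand for Umps. Capitals mark matches to any of 4 short motifs searched on both strands over 250 bases before to 50 bases after each start. The motifs were the E-box CACGTG bound by Myc and Max, the core ACGTG or GCGTG of the hypoxia response element, the E2F sites TTTGGCGC and TTTCGCGC, and the CCAAT box. An E-box always holds the hypoxia core ACGTG, so those matches overlap.
Cad upstream: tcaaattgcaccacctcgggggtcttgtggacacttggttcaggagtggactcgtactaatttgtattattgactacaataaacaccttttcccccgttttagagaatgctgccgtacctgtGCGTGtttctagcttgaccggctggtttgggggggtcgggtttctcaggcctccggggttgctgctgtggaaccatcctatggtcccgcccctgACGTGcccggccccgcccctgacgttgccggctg
Umps upstream: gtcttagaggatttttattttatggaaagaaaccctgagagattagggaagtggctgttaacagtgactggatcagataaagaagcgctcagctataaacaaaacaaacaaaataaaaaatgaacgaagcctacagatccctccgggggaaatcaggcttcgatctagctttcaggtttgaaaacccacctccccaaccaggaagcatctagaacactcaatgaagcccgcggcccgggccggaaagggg
Cad held 2 hypoxia core matches, GCGTG and ACGTG, which began 128 and 34 bases before the start, and no other motif in the window searched. Bases more than 50 after the start were not searched, so sites there would be missed. Umps held none of the 4 in this window. Of the 21770 promoters of coding genes, 48% held a hypoxia core, 7.81% an E-box, 1.01% an E2F site and 39.9% a CCAAT box. Among the 8 genes, within that window, 4 held a hypoxia core (Cad, Ctps, Uck1 and Cmpk1), 1 an E-box (Uck1) and none an E2F site or CCAAT box. A match of letters describes the sequence and is not evidence of binding.

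CTP is made from UTP by the CTP synthases Ctps and Ctps2, which take their amino group from glutamine. Ctps, at chr4:120397065-120427473 (reverse strand), stood at 30 and 34.2 FPKM in Jak2WT GLUT1/3 WT and 36.9 and 39.4 in Jak2WT GLUT1/3 dKO. It stood at 42.4 and 34.6 FPKM in Jak2V617F GLUT1/3 WT and 40.3 in both Jak2V617F GLUT1/3 dKO clones. The Jak2WT GLUT1/3 WT clones were the lowest, and the spread within Jak2V617F GLUT1/3 WT covered both dKO groups. No comparison of Ctps passed the test, and its log2 difference in dKO was 0.25 in Jak2WT (limma adjusted p = 0.188, interval -0.02 to 0.51) and 0.07 in Jak2V617F (interval -0.20 to 0.34). Against Jak2WT, Ctps was at a log2 difference of 0.25 in Jak2V617F GLUT1/3 WT (limma adjusted p = 0.136), which passed at 0.0478 without Jak2V617F GLUT1/3 WT clone 3.

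Ctps2 lies at chrX:161684234-161815504 (forward strand) and was the lesser isozyme in every library. It stood at 9.85 and 10.3 FPKM in Jak2WT GLUT1/3 WT, against 9.36 and 9 in Jak2WT GLUT1/3 dKO, 12.1 and 10.2 in Jak2V617F GLUT1/3 WT, and 9.09 and 8.1 in Jak2V617F GLUT1/3 dKO. In each background Ctps2 was lower in the pair of dKO clones than in the pair with intact transporters. Ctps2 fell by 0.34 on the log2 scale in Jak2V617F GLUT1/3 dKO (95% interval -0.57 to -0.10, limma adjusted p = 0.0415), while the difference of -0.12 in Jak2WT did not pass (limma adjusted p = 0.455). The effects themselves differed by -0.22, which did not pass either (limma adjusted p = 0.344). The call for Ctps2 passed in 7 of 18 alternatives. Its adjusted p was 0.0892 without the filter on low values, 0.054 without the intensity trend, 0.138 with only the groups compared, 0.0555 with the same summed FPKM and 0.0665 with voom. It was also lost in 6 of the 8 fits that left out 1 library. Its adjusted p was 0.0721 and 0.0726 without Jak2WT GLUT1/3 WT clones 1 and 3, 0.0681 and 0.0679 without Jak2WT GLUT1/3 dKO clones 1 and 3, 0.182 without Jak2V617F GLUT1/3 WT clone 1 and 0.146 without Jak2V617F GLUT1/3 dKO clone 3.

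**Figure D2:**
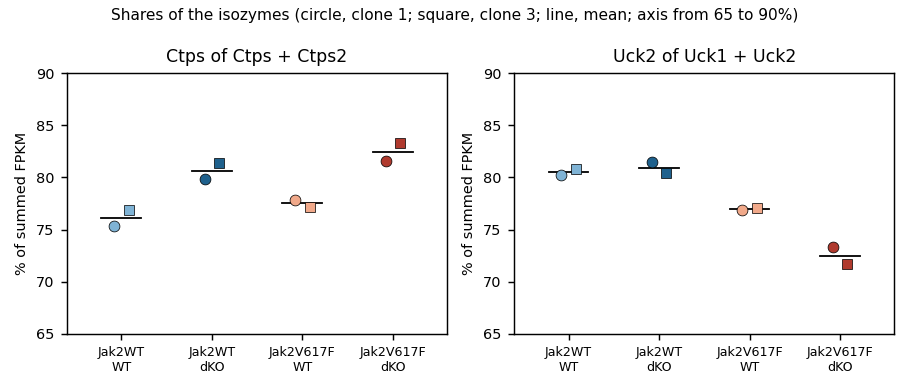
Share of Ctps in the summed FPKM of Ctps and Ctps2 (left) and of Uck2 in that of Uck1 and Uck2 (right) in each library; circles are clone 1, squares clone 3, lines the group mean, and the axis runs from 65 to 90%. The Ctps share is higher in both dKO groups, and the Uck2 share is lowest in Jak2V617F GLUT1/3 dKO.

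Within the pair, Ctps made up 75.3 and 76.9% of the summed FPKM in Jak2WT GLUT1/3 WT and 79.8 and 81.4% in Jak2WT GLUT1/3 dKO. It made up 77.8 and 77.2% in Jak2V617F GLUT1/3 WT and 81.6 and 83.3% in Jak2V617F GLUT1/3 dKO. All 4 dKO clones were above all 4 GLUT1/3 WT clones. The means differed by 4.52 percentage points in Jak2WT and by 4.9 in Jak2V617F, with an exact two-sided permutation p of 0.333 each, which is the smallest that 2 clones against 2 can give.

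Uridine and cytidine are salvaged by the uridine-cytidine kinases Uck1 and Uck2. Uck1, at chr2:32145014-32150171 (reverse strand), stood at 14 and 14.3 FPKM in Jak2WT GLUT1/3 WT and 14.8 and 15.7 in Jak2WT GLUT1/3 dKO. It stood at 18.7 and 16.1 FPKM in Jak2V617F GLUT1/3 WT and 21.1 and 20 in Jak2V617F GLUT1/3 dKO. All 4 Jak2V617F clones lay above all 4 Jak2WT clones, and the 4 groups did not overlap. Among dKO clones Uck1 was higher in Jak2V617F by 0.41 on the log2 scale (SE 0.091, limma adjusted p = 0.0237), a ratio of 1.35. Among GLUT1/3 WT clones the difference was 0.28 (SE 0.091, limma adjusted p = 0.0554), which passed at 0.0355 without Jak2V617F GLUT1/3 WT clone 3 and at 0.048 with median ratio scaling. The dKO effect on Uck1 was 0.10 in Jak2WT (interval -0.11 to 0.32) and 0.23 in Jak2V617F (limma adjusted p = 0.0932). The latter passed in 2 of 18 alternatives, at 0.32 with libraries scaled to the same summed FPKM (adjusted p = 0.0205) and at 0.35 with voom on recovered reads (adjusted p = 0.0173). The higher level among dKO clones did not pass with only the groups compared (0.055) or without 5 of the libraries in turn. The adjusted p for Uck1 was 0.052 and 0.0523 without Jak2WT GLUT1/3 WT clones 1 and 3, 0.139 and 0.0776 without Jak2WT GLUT1/3 dKO clones 1 and 3, and 0.0913 without Jak2V617F GLUT1/3 dKO clone 1.

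Uck1 was the gene of the 8 with an E-box in the window searched. The 60 bases before its reference start, at chr2:32150351-32150410 on the reverse strand, are shown for that match. The start of the reference transcript lies upstream of the gene end in the deposited table, so the annotations differ there.
Uck1 upstream: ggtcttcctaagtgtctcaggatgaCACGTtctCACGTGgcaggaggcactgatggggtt
The second run of capitals is the E-box, which began 27 bases before the start, and the first run is a further match to the hypoxia core, read as CACGT on the gene's strand.

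Uck2 was the most abundant of the 8 genes, with a mean of 58.9 FPKM, and lies at chr1:167050452-167112889 (reverse strand). It stood at 56.4 and 60.2 FPKM in Jak2WT GLUT1/3 WT, against 65.2 and 64.5 in Jak2WT GLUT1/3 dKO, 62.1 and 54.1 in Jak2V617F GLUT1/3 WT, and 57.9 and 50.5 in Jak2V617F GLUT1/3 dKO. The Jak2WT GLUT1/3 dKO clones were the highest, and the other 3 groups overlapped. No comparison of Uck2 passed the test, the log2 difference between dKO groups being -0.26 (limma adjusted p = 0.132, interval -0.50 to -0.02).

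The share of Uck2 in the summed FPKM of both kinases was 80.2 and 80.8% in Jak2WT GLUT1/3 WT and 81.5 and 80.4% in Jak2WT GLUT1/3 dKO. It was 76.9 and 77.1% in Jak2V617F GLUT1/3 WT and 73.3 and 71.7% in Jak2V617F GLUT1/3 dKO. Every Jak2V617F clone thus had a smaller Uck2 share than every Jak2WT clone. In Jak2V617F the dKO clones differed from the GLUT1/3 WT clones by -4.51 percentage points (exact two-sided permutation p = 0.333, the smallest possible). In Jak2WT the difference was 0.475 percentage points (exact permutation p = 0.667).

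Cmpk1 encodes the UMP/CMP kinase, which takes UMP and CMP from both routes to the diphosphates. It lies at chr4:114816533-114844438 (reverse strand) and stood at 54.1 and 56 FPKM in Jak2WT GLUT1/3 WT, against 61.7 and 58.2 in Jak2WT GLUT1/3 dKO, 59.6 and 52.7 in Jak2V617F GLUT1/3 WT, and 47 and 50 in Jak2V617F GLUT1/3 dKO. The 2 Jak2V617F GLUT1/3 dKO clones were the lowest of the 8. No comparison of Cmpk1 passed the test. Its log2 difference was -0.30 between the dKO groups (SE 0.088, limma adjusted p = 0.0569), -0.21 for dKO in Jak2V617F (limma adjusted p = 0.119) and 0.12 for dKO in Jak2WT (interval -0.09 to 0.33). The difference between the dKO groups passed in 4 alternatives, at an adjusted p of 0.0338 with the same summed FPKM, 0.038 with voom, and 0.0453 and 0.0454 without Jak2V617F GLUT1/3 WT clones 1 and 3.

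**Figure D3:**
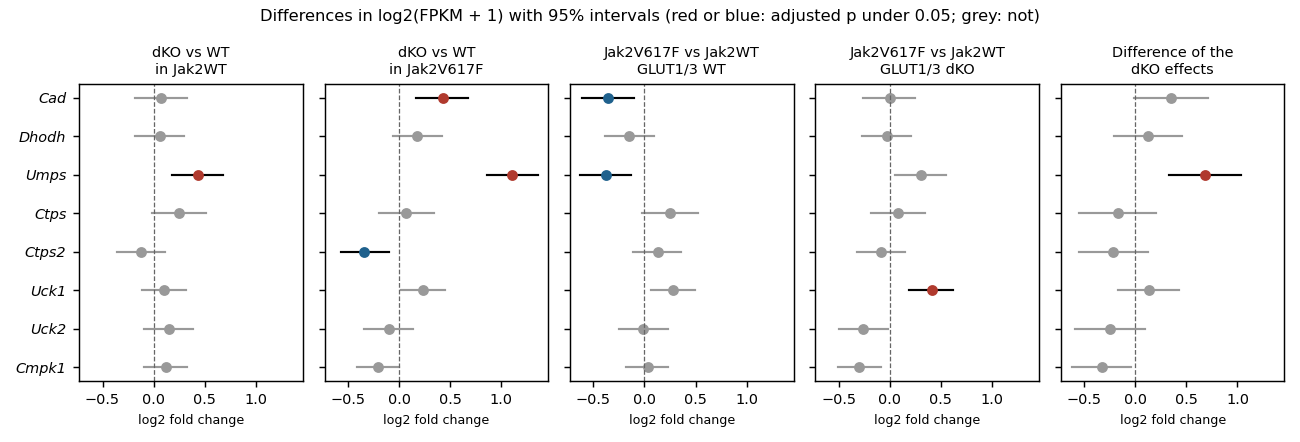
Differences in log2(FPKM + 1) of the 8 genes in the 4 comparisons and in the difference of the dKO effects between backgrounds, with 95% intervals from limma; red and blue points passed the adjusted p threshold of 0.05, grey points did not. The largest effect is Umps in Jak2V617F, at 1.11, and the largest difference between the dKO effects is also that of Umps, at 0.68.

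Counted over the 8 genes, dKO in Jak2WT gave 1 higher (Umps) and none lower, beside 7.62% of all genes tested that were higher and 6.06% that were lower. In Jak2V617F, dKO gave 2 higher (Umps and Cad) and 1 lower (Ctps2), where 13.7% of all genes tested were higher and 16.2% lower. Jak2V617F GLUT1/3 WT against Jak2WT GLUT1/3 WT gave none higher and 2 lower (Umps and Cad), where 15.3% of all genes were higher and 14.9% lower. Among dKO clones, Jak2V617F against Jak2WT gave 1 higher (Uck1) and none lower, where 7.12% were higher and 9.96% lower. For the difference between the dKO effects, 1 gene was higher (Umps) and none lower, where 4.72% of genes had a larger and 5.91% a smaller log2 change in Jak2V617F. A share of 8 genes is too coarse to be set apart from these background shares, and the calls are those of single genes. The median log2 change of the 8 genes was 0.11 for dKO in Jak2WT and 0.13 in Jak2V617F, beside 0.008 and -0.019 over all genes tested.

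Genes of S phase moved along the same groups as Umps. The summed level of 14 genes of DNA replication and proliferation was 846 to 880 FPKM in Jak2WT GLUT1/3 WT, 784 to 903 in Jak2WT GLUT1/3 dKO, 455 to 506 in Jak2V617F GLUT1/3 WT and 971 to 1026 in Jak2V617F GLUT1/3 dKO. All 14 were higher in dKO in Jak2V617F, with a median log2 change of 1.14, while in Jak2WT none was higher and 1 lower (Mki67), with a median of 0.08. Of all genes tested, 13.7% were higher in dKO in Jak2V617F, and 7.62% were higher and 6.06% lower in Jak2WT. The list and Umps shared their lowest group, Jak2V617F GLUT1/3 WT, and their highest, Jak2V617F GLUT1/3 dKO. In Jak2WT the ranges of this summed level overlapped between dKO and GLUT1/3 WT, where those of Umps did not. Single genes of the list went both ways there. Cdc6, Ccne2, Pcna, Mcm6, Ccne1 and Cdt1 were higher in dKO without overlap of clones, by log2 differences from 0.15 to 0.60, and none passed. Mki67, Top2a and Mcm7 were lower without overlap, and the others overlapped. The part of the proliferative state in the values of Umps and Cad was not tested.

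The genes whose profile over the 8 libraries lay closest to Umps were Nup85, Stk10 and Mcm6, which encode a nucleoporin, a serine/threonine kinase and a subunit of the replicative helicase. Their root mean square difference from Umps, on log2(FPKM + 1) centred per gene, was 0.0787, 0.084 and 0.0924, beside a median of 0.476 over the 9710 coding genes compared. Nup85 rose from 21.3 and 18.8 FPKM in Jak2V617F GLUT1/3 WT to 40.9 and 42.9 in Jak2V617F GLUT1/3 dKO, and from 26.2 and 28.5 to 33 and 35.7 FPKM in Jak2WT. Closest to Cad were Ltn1 (0.0507), Rbm12 (0.0526) and Smarca4 (0.0613), against a median of 0.279. Closest to Ctps2 were Pxn (0.0296), Nub1 (0.0305) and Gnb1 (0.0308), against a median of 0.234. Closest to Uck1 were Ptpn1 (0.0254), Trappc2 (0.0569) and Pik3cb (0.0575), against a median of 0.287. These are descriptions over 8 libraries, with no test.

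**Figure D4:**
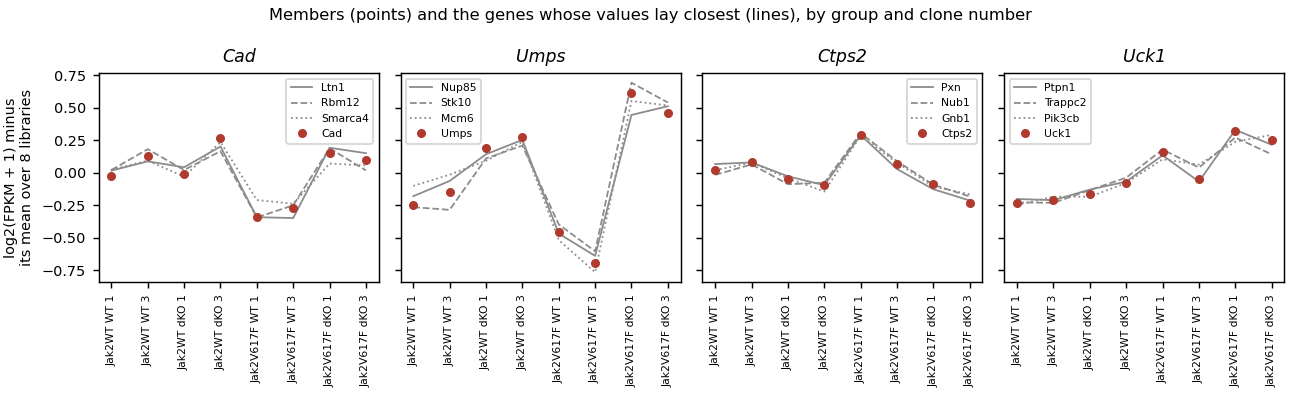
Profiles over the 8 libraries of the 4 members that passed a test (red points) and of the 3 coding genes closest to each (grey lines), as log2(FPKM + 1) minus the gene's mean. Umps and its neighbours dip in the 2 Jak2V617F GLUT1/3 WT clones and peak in the 2 Jak2V617F GLUT1/3 dKO clones.

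The neighbouring steps of pyrimidine metabolism were described from lists chosen by function. The counts of called genes in each list below stand beside 7.62% higher and 6.06% lower of all genes tested for dKO in Jak2WT, and 13.7% higher and 16.2% lower in Jak2V617F. Of 22 other enzymes of uridine and cytidine nucleotides 13 passed the filter. In Jak2WT, dKO raised 1 of them, Nme1, a nucleoside diphosphate kinase that makes UTP and CTP, by 0.42 on the log2 scale (limma adjusted p = 0.0196). In Jak2V617F, dKO raised Nme1, Cda and Nt5c3b and lowered Upp1 and Uckl1. Cda, the deaminase that turns cytidine into uridine, stood at 7.49 and 6.77 FPKM in Jak2V617F GLUT1/3 WT and 12 and 11.4 in Jak2V617F GLUT1/3 dKO, a log2 change of 0.64 (limma adjusted p = 0.00287). The 4 Jak2WT clones had Cda between 5.01 and 5.84 FPKM, and the difference between the dKO effects passed (0.58, limma adjusted p = 0.0358). Upp1, the phosphorylase that cleaves uridine, stood at 23.8 and 22.3 FPKM in Jak2V617F GLUT1/3 WT and between 4.67 and 9.87 FPKM in the other 6 libraries. Upp1 fell by 1.43 on the log2 scale in Jak2V617F GLUT1/3 dKO (limma adjusted p = 0.00987), and its difference between the dKO effects, -1.55, did not pass (limma adjusted p = 0.0504).

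Of 7 nucleoside transporter genes 2 passed the filter. Slc29a2, an equilibrative transporter for uridine and other nucleosides, stood at 3.8 and 4.11 FPKM in Jak2WT GLUT1/3 WT and at 6.51 and 6.1 in Jak2WT GLUT1/3 dKO. It stood at 3.22 and 3.16 FPKM in Jak2V617F GLUT1/3 WT and at 4.29 and 4.97 in Jak2V617F GLUT1/3 dKO. Slc29a2 rose in dKO in both backgrounds, by 0.56 in Jak2WT (limma adjusted p = 0.0128) and 0.42 in Jak2V617F (limma adjusted p = 0.0149).

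The next list held 11 genes tied to the supply or use of PRPP, aspartate and glutamine, which are substrates of Cad or Umps. All 11 passed the filter. In Jak2WT none was higher in dKO and 2 were lower, the aspartate carrier Slc25a12 and Prpsap1. In Jak2V617F 2 were higher and 4 lower. Prps1, a PRPP synthetase that supplies Umps, stood at 59.3 and 48.4 FPKM in Jak2V617F GLUT1/3 WT and 81.6 and 86 in Jak2V617F GLUT1/3 dKO, a log2 change of 0.64 (limma adjusted p = 0.00792), and its relative Prps2 rose by 0.41 (limma adjusted p = 0.0425). In Jak2WT the dKO differences did not pass, at 0.39 for Prps1 (limma adjusted p = 0.0703) and 0.41 for Prps2 (limma adjusted p = 0.067). The difference between the dKO effects did not pass for either, at 0.25 for Prps1 (limma adjusted p = 0.353) and 0.00 for Prps2 (95% interval -0.41 to 0.41). Asns, which consumes aspartate and glutamine to make asparagine, stood at 125 and 142 FPKM in Jak2V617F GLUT1/3 WT and 47.6 and 57.6 in Jak2V617F GLUT1/3 dKO. Asns thus fell by 1.33 on the log2 scale (limma adjusted p = 0.00055), beside a difference of -0.07 in Jak2WT. Got1, the cytosolic aspartate aminotransferase, fell by 0.58 in Jak2V617F (limma adjusted p = 0.00464).

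Among 9 of 11 genes for the use of UTP and CTP that passed, dKO gave 1 higher (Uap1) and 1 lower (Pcyt1a) in Jak2WT. In Jak2V617F, Uap1 was again higher and 3 genes were lower (Cmas, Ugp2 and Pcyt1a). Cmas, which joins CTP to sialic acid, stood at 87.5 and 81.3 FPKM in Jak2V617F GLUT1/3 WT and 44.6 and 46.8 in Jak2V617F GLUT1/3 dKO. The median change of the list was -0.08 in Jak2WT and -0.06 in Jak2V617F.

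Deoxynucleotide enzymes draw on the products of the 8 genes, and all 12 genes of this list passed the filter. In Jak2WT none was called in either direction, with log2 changes from -0.15 to 0.28. In Jak2V617F 9 were higher and none lower in dKO, beside 13.7% and 16.2% of all genes tested, with a median of 0.83. Rrm2, the regulated subunit of ribonucleotide reductase, stood at 27.6 and 22 FPKM in Jak2V617F GLUT1/3 WT and 71.2 and 70.7 in Jak2V617F GLUT1/3 dKO, a log2 change of 1.49 (limma adjusted p = 0.000583). Thymidine kinase Tk1 rose by 1.59 (limma adjusted p = 0.000772) and deoxycytidine kinase Dck by 1.26 (limma adjusted p = 0.000529). The difference between the dKO effects passed for 7 of the 12, all larger in Jak2V617F, beside 4.72% of all genes tested in that direction. In Jak2WT dKO, Umps rose by 0.43 (limma adjusted p = 0.0391), a call that depended on single libraries. Dctd of the deoxynucleotide list was higher there by 0.28, which did not pass (limma adjusted p = 0.0716). Whether Umps and the deoxynucleotide genes responded differently was not tested.

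Of the 11 purine synthesis genes that passed, dKO gave 2 higher in Jak2WT (Adsl and Adss) and 4 in Jak2V617F (Gart, Pfas, Adsl and Atic), with none lower in either. Of all genes tested, 7.62% were higher and 6.06% lower in Jak2WT, and 13.7% and 16.2% in Jak2V617F. Gart, which carries 3 steps of the purine route in 1 protein, stood at 23.7 and 19.2 FPKM in Jak2V617F GLUT1/3 WT and 45.7 and 39.7 in Jak2V617F GLUT1/3 dKO, a log2 change of 0.96 (limma adjusted p = 0.00245). In Jak2V617F GLUT1/3 WT, Gart and Pfas were also lower than in Jak2WT GLUT1/3 WT, by log2 differences of -0.60 and -0.56, while Adss was higher by 0.40 (limma adjusted p = 0.0183) and the other 8 were not called. The median change of the list was 0.28 in Jak2WT and 0.08 in Jak2V617F.

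Of 12 regulators of Cad and of nucleotide synthesis, 2 were lower in Jak2WT dKO (Mycn and Mapk3). In Jak2V617F dKO, E2f1 was higher and 4 genes were lower (Mycn, Myc, Max and Mapk3). Myc, a known activator of Cad transcription, stood at 160 and 154 FPKM in Jak2V617F GLUT1/3 WT and at 124 and 104 in Jak2V617F GLUT1/3 dKO. The library values of Myc were highest in the group where Cad was lowest. The part of Myc in the level of Cad was not tested. Myc was lower in dKO by a log2 difference of -0.47 in Jak2V617F (limma adjusted p = 0.0121), and the difference in Jak2WT, 0.25, did not pass. E2f1, a factor of S phase entry, stood at 4.71 and 4.2 FPKM in Jak2V617F GLUT1/3 WT and 10.4 and 10.6 in Jak2V617F GLUT1/3 dKO, a log2 change of 1.07 (limma adjusted p = 0.00131). Of 13 genes of ubiquinone synthesis, whose product accepts the electrons from Dhodh, 1 was higher (Coq10b) and 2 lower (Pdss2 and Coq6) in Jak2WT dKO. In Jak2V617F dKO 1 was higher (Pdss1) and 2 lower (Coq9 and Coq3), and for none did the difference between the dKO effects pass the test of limma.

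**Figure D5:**
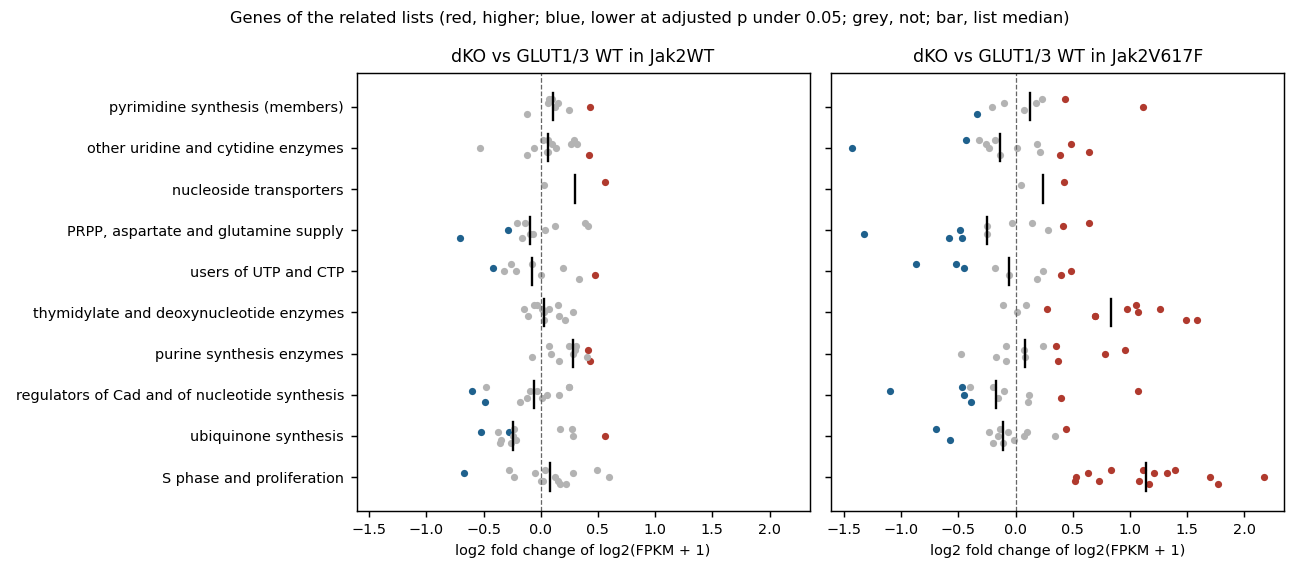
Log2 changes in dKO against GLUT1/3 WT of the 8 pyrimidine synthesis genes and of the genes of 9 related lists, in Jak2WT (left) and Jak2V617F (right); red and blue points passed the adjusted p threshold of 0.05 and black bars are list medians. The medians of the deoxynucleotide and S phase lists lie to the right of 0 in Jak2V617F, at 0.83 and 1.14, and near 0 in Jak2WT.

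Some reads of the 8 genes may belong to overlapping genes, since the strand setting of the counting was not given in the sources used here. Umps overlaps the antisense gene Gm15829 by 800 bases, with 0.0537 to 0.607 FPKM. Uck1 overlaps Pomt1 by 4 bases, and Ctps2 overlaps S100g, listed at 0 in every library. Uck2 overlaps Gm2453 and Gm37982, which stayed at or below 0.468 FPKM.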

How the data were processed

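Polyadenylated RNA of 8 clones of 32D cells, 2 for each of 4 groups assigned from the labels, was sequenced. The authors deposited FPKM, which their sequencing provider had computed from reads trimmed with fastp 1.0.1, aligned to mm39 with HISAT2 2.2.1 and counted with featureCounts 2.0.6, per the submitters' processing notes. The annotation version, strand setting and library total are not given in the sources used here. FPKM times gene length was a whole multiple of 1 step for 100% of values above 0 within 0.01 of a step, so reads were recovered. Genes that reached FPKM 1 in 2 or more libraries were tested. The test was limma (3.58.1, R 4.3.3), applied to log2(FPKM + 1) with 1 mean per group and the intensity trend, adding 3.34 prior to 4 residual degrees of freedom. Log2 values plus 1 understate changes of low genes. Two-sided p-values were adjusted after Benjamini and Hochberg across the 11818 genes tested. A fit without 1 library assumes that a lone clone varies like the other groups. The members and lists were chosen with earlier results of these data known, and beyond the members the genes named are the up to 3 called genes of each list with the largest change in each dKO comparison, the 3 nearest coding genes, and others chosen after their values were seen. Alternatives were a pseudocount of 0.1, other filters, other variance estimates, other scalings, voom on recovered reads, a clone number block and leaving out each library. Python 3.11.15, pandas 2.3.3 and matplotlib 3.10.9 made tables and figures. Some genes of the lists and one feature of the cells are not reported here.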

Additional observations from a re-analysis of the deposited data

Results flagged for a closer look

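The response of Umps to dKO differed between the backgrounds by the test of the difference itself. The log2 change was 0.43 in Jak2WT and 1.11 in Jak2V617F, and they differed by 0.68 (SE 0.151, limma adjusted p = 0.0349). Over 17 alternatives the adjusted p for this difference of Umps ran from 0.00382 to 0.128 and passed in 9, and the direction was the same in all 17. All 4 dKO clones had more Umps than the 4 GLUT1/3 WT clones. Groups of 2 clones are too small for a search for single libraries that stand apart within a group.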

How the results depend on the processing

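The rise of Umps in Jak2V617F dKO passed in 18 of 18 alternatives, with adjusted p from 3.08e-05 to 0.0152. The other calls were nearer to the threshold, with adjusted p from 0.0162 to 0.201 for Umps in Jak2WT dKO (past in 11 of 18), 0.00362 to 0.172 for Umps between GLUT1/3 WT groups (11), 0.00522 to 0.101 for Cad in Jak2V617F dKO (13), 0.00914 to 0.222 for Cad between GLUT1/3 WT groups (10), 0.0303 to 0.182 for Ctps2 (7) and 0.00484 to 0.139 for Uck1 (12). The cause of these moves was not tested, though a fit with fewer libraries has fewer degrees of freedom.

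Counts of members moved as follows. Without a filter on low values, the count higher in Jak2WT dKO went from 1 to 0, that in Jak2V617F dKO from 2 higher and 1 lower to 1 and 0, that lower in Jak2V617F GLUT1/3 WT from 2 to 0, and that for the difference of effects from 1 to 0. Without the intensity trend these were 0 higher in Jak2WT dKO, 0 lower in Jak2V617F dKO and 1 lower between GLUT1/3 WT groups. With only the groups compared, they were 0 lower in Jak2V617F dKO, 1 lower between GLUT1/3 WT groups and 0 higher between dKO groups. Scaling to the same summed FPKM and voom on recovered reads each gave 3 higher (Umps, Cad and Uck1) and 0 lower in Jak2V617F dKO and, between dKO groups, 2 higher (Umps and Uck1) and 1 lower (Cmpk1), and voom gave 2 higher for the difference of effects (Umps and Cad). Median ratio scaling gave 1 higher (Uck1) between GLUT1/3 WT groups. Leaving out 1 library gave 0 to 1 higher in Jak2WT dKO, 1 to 2 higher and 0 to 1 lower in Jak2V617F dKO, 0 to 2 higher and 0 to 2 lower between GLUT1/3 WT groups, 0 to 1 higher and 0 to 1 lower between dKO groups, and 0 to 1 higher for the difference of effects.

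The clone numbers did not pair the samples, since deviations of same-numbered clones correlated between -0.254 and 0.152. With the clone number as a replicate block, Umps gave an adjusted p of 0.0568 in Jak2WT dKO and 0.0512 for the difference of effects, so both counts went from 1 to 0, and no other call changed.

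Scaling to the same summed FPKM moved the median log2 change of all genes from 0.00762 to -0.12 between GLUT1/3 WT groups and from -0.0394 to 0.12 for the difference of effects. Signs turned only for members that did not pass. In Jak2WT dKO, Cad and Dhodh went to -0.023 and -0.021 under that scaling, and to -0.063 to 0.21 and -0.023 to 0.14 without 1 library. In Jak2V617F dKO, Ctps ran from -0.071 to 0.22 and Uck2 from -0.20 to 0.001 without 1 library. Between GLUT1/3 WT groups, the same summed FPKM gave -0.012 for Ctps2 and -0.13 for Cmpk1, voom gave -0.084 for Cmpk1, and without 1 library Uck2 ran from -0.11 to 0.091 and Cmpk1 from -0.061 to 0.11. Between dKO groups, Cad was 0.033, 0.024 and 0.041 and Dhodh 0.004 and 0.017 under the same summed FPKM, median ratio scaling (Cad alone) and voom, with -0.14 to 0.13 for Cad and -0.094 to 0.039 for Dhodh without 1 library. The difference of effects for Ctps was 0.014 under the same summed FPKM. By recovered reads, which do not divide by gene length, the Ctps share was 69, 74.5, 70.8 and 76.8% and the Uck2 share 89.1, 89.4, 87 and 84% in the order Jak2WT GLUT1/3 WT, Jak2WT GLUT1/3 dKO, Jak2V617F GLUT1/3 WT and Jak2V617F GLUT1/3 dKO. Each group had 2 clones, and the least covered member, Dhodh, had as few as 452 reads.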
